A study of Mus musculus with 8 samples.

Results

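The genes described here encode proteins of the mitochondrial ribosome, the mitoribosome. They are all rows of the deposited table whose symbol is Mrpl or Mrps followed by a number and at most a single letter, without the suffix that marks pseudogenes. The rule found 78 genes of 57180, of which 49 carry Mrpl and 29 carry Mrps symbols, and it used no measured value. By the known place of the protein, 51 belong to the large subunit, 26 to the small subunit, and Mrps36 to neither. Regulatory T (Treg) cells, a CD4 T cell lineage that holds other immune cells in check, were taken by flow sorting out of several mice, and their total RNA was sequenced. By its title the study asks how copper acts on suppression by these cells. There were 3 libraries labelled chimera KO and 5 labelled chimera WT, called KO and WT here. The labels give both groups the same cell type, regulatory T cells, and name no deleted gene, allele, strain, age, sex or treatment, so no targeted gene could be checked.

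The mitoribosome sits in the mitochondrial matrix and makes the few membrane proteins of the respiratory chain and ATP synthase that mitochondrial DNA encodes. Its RNAs come from mitochondrial DNA, while all of its proteins are encoded in the nucleus, made in the cytosol and imported. Some of these proteins descend from bacterial ribosomal proteins and others are found only in mitochondrial ribosomes. In T cells, mitochondrial translation is known to support respiration and proliferation after activation.

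Promoters of nuclear genes for mitochondrial proteins often hold sites for NRF1, for factors of the ETS family and for YY1. These motifs were therefore searched in the RefSeq promoters (build GRCm38.p6), from 250 bases before the transcription start to a short way past it. The motifs were GCATGCGC for NRF1, CCGGAAG for ETS factors and AAGATGGCG for YY1, on both strands, and no site of a motif overlapped a site of another motif. The 5 stretches below belong to genes whose values are given in full further on. Each reads 5′ to 3′ on the strand of the gene, ends at or before the RefSeq start, and has the motif in capitals, which appears as its reverse complement where the site lies on the other strand. Promoters of Mrpl33 and Mrps18b hold both an NRF1 and an ETS motif, of which the stretch shows the NRF1 motif, and those of Mrps26, Mrpl48 and Mrpl52 hold an ETS motif alone.
Mrpl33, chr5:31613909-31613950, plus strand: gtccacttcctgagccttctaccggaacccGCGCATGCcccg
Mrps18b, chr17:35916626-35916690, minus strand: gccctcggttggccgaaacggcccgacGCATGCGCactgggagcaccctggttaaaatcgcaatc
Mrps26, chr2:130563713-130563756, plus strand: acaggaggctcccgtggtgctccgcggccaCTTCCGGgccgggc
Mrpl48, chr7:100583131-100583194, minus strand: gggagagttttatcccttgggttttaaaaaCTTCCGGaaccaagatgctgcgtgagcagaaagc
Mrpl52, chr14:54426832-54426898, plus strand: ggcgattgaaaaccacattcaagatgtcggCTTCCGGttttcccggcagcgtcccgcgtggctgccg

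Total counts in mega counts (M) were 4.31 to 8.48 M in the KO libraries and 10.5 to 17.98 M in the WT libraries. Levels of single genes are given as CPM, which are counts relative to the library's total, after TMM scaling, which divides each library by an effective size. The TMM factors were 1.32 to 1.49 in the KO libraries and 0.40 to 1.15 in the WT libraries, with the lowest in WT libraries 4 and 5 (0.40 and 0.689), and a factor under 1 raises the scaled CPM of a library. These 2 libraries also had the fewest genes with at least 10 counts (8250 and 9484, against 12491 to 14318 in the other 6), and log2 changes of the named genes without them are given beside those with all 8. The 5 Treg markers summed to 635 to 2562 CPM in KO and 2186 to 6011 CPM in WT libraries. Foxp3, which defines the lineage, had 26.6, 2.69 and 24.2 CPM in KO libraries 1 to 3. In WT libraries 1 to 5 Foxp3 had 11.9, 36.6, 41.9, 3.09 and 1.26 CPM. It was thus low in KO library 2 and in WT libraries 4 and 5. The 4 T cell markers summed to 672 to 949 CPM in KO and 1311 to 10418 CPM in WT libraries. These sums did not overlap between the groups, and WT libraries 4 and 5 were the highest. The marker Cd4 did not follow the sum in WT library 4, where it had 86.3 CPM, against 99.5 to 128 CPM in the KO libraries. The sum in WT library 4 came mostly from Cd3d (4573 CPM), Trac (4373 CPM) and Cd3e (1386 CPM). The 2 CD8 T cell markers summed to 3.67 to 62.6 CPM in KO and 1.26 to 236 CPM in WT libraries. The 4 NK cell markers summed to 0.150 to 56.8 CPM in KO and 46.2 to 3903 CPM in WT libraries, and the 5 B cell markers to 78.2 to 194 CPM in KO and 199 to 3107 CPM in WT libraries. The B cell sums did not overlap between the groups, and WT library 4 was the highest for the CD8 T, NK and B cell lists, although Ncr1, an NK cell receptor gene, was at 0 in all libraries. The 4 haemoglobin genes summed to 0.449 to 7.16 CPM in KO libraries and 0 to 9102 CPM in WT libraries, with the highest in WT library 5, and the 4 myeloid markers to 23.1 to 76.7 CPM in KO and 68.5 to 459 CPM in WT libraries. The part of these markers in the results below was not tested. In bulk samples fewer cells of a type and less RNA per cell cannot be told apart.

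No mitoribosomal protein gene passed the test over all genes between KO and WT Treg cells, yet most had a lower fitted level in the KO libraries. Of the 77 genes with enough counts to be tested, 71 had a negative log2 change (KO minus WT), against 56.8% of all 14755 genes tested and 66.5% of those that encode proteins. The median log2 change was −1.80, where all genes tested gave −0.42 and protein-coding genes −0.87, and single genes ranged from −4.48 to 4.02. By edgeR's quasi-likelihood test with Benjamini-Hochberg adjustment, 0 genes passed an adjusted p of 0.05 among the 77, as among all genes tested (0%), and the smallest adjusted p of a mitoribosomal gene was 0.325. At an unadjusted p under 0.05 in edgeR, 12 lay lower (6.43% of all genes tested and 7.95% of protein-coding genes) and 0 higher (7.96% of all genes). DESeq2 called 21 lower (10.0% of all genes tested) and 0 higher (6.40%), and gave no adjusted p for 12. Of 10753 protein-coding genes tested it called 1335 lower and 451 higher. Each KO library lay below each WT library for 10 genes, against 4.49% of all genes tested and 5.44% of protein-coding genes, and above for 0, against 13.2% and 8.40%. On CPM of the library total, without TMM factors, a comparison added after the data were seen, 3 lay below (1.67% of all and 2.01% of protein-coding genes) and 3 above (18.8% and 12.1%).

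**Figure D1:**
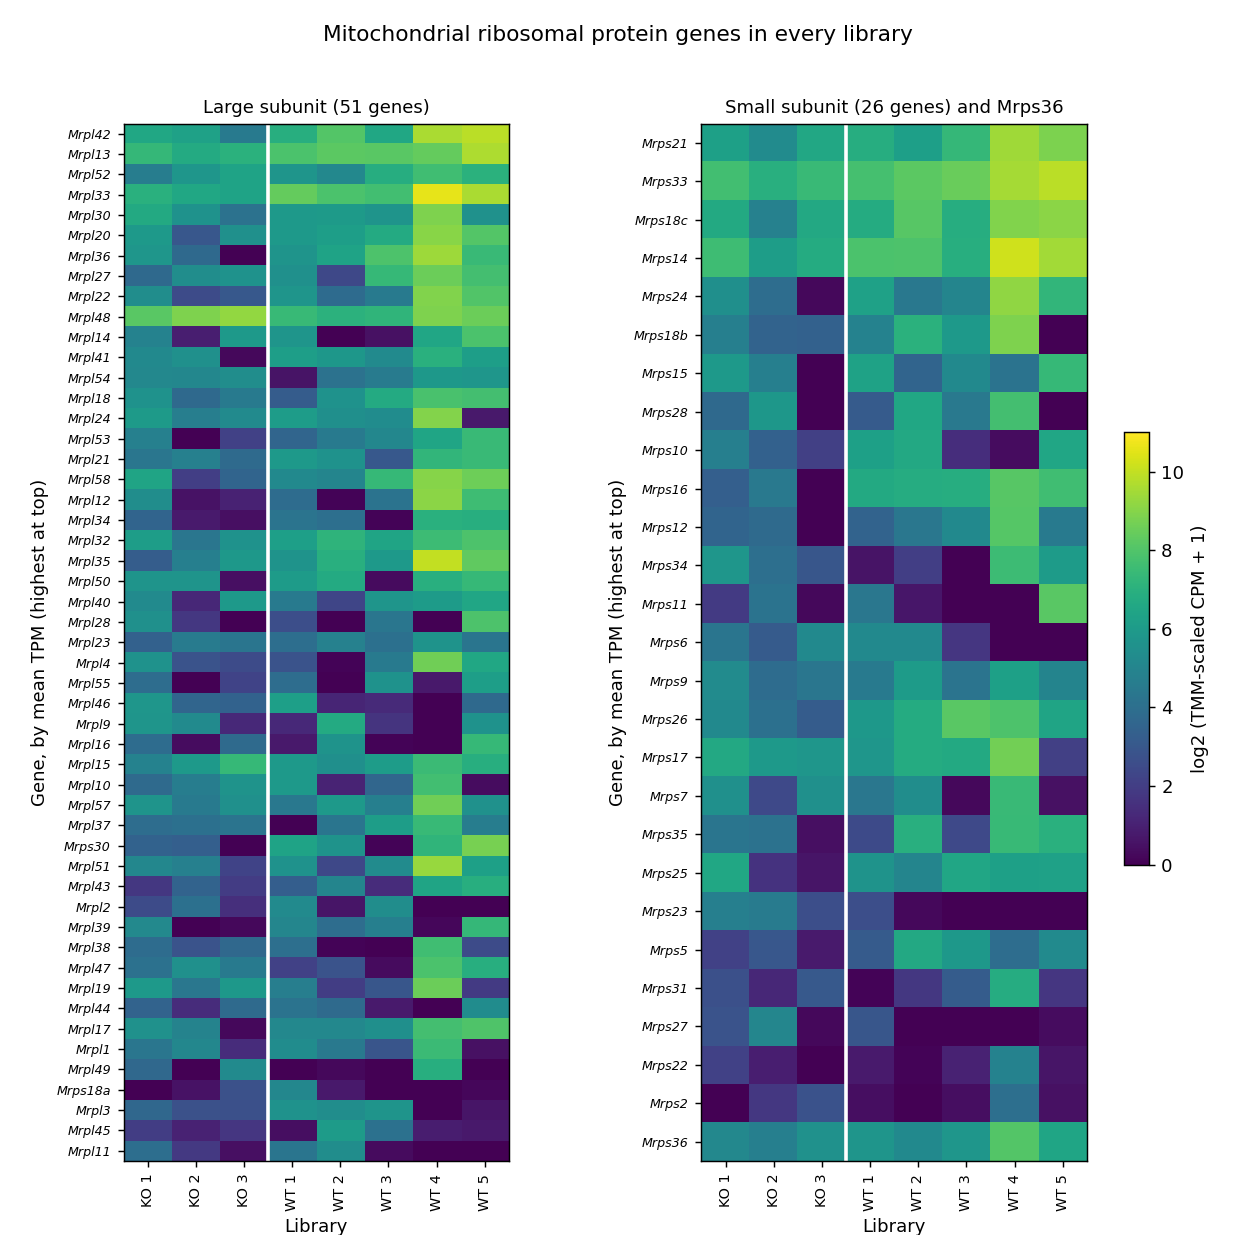
Levels of all 78 mitoribosomal protein genes in the 3 KO libraries (left of the white line) and the 5 WT libraries, as log2 of TMM-scaled CPM plus 1, with genes in order of mean TPM in each panel. On this scale WT library 4 held the highest value for 43 genes and WT library 5 for 20, against 25 and 23 genes in CPM of the library total, and dark cells mark genes at or near 0.

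On TMM-scaled CPM the highest value of a gene was in WT library 4 or 5 for 63 of the 78 genes, in a KO library for 4 and in WT libraries 1 to 3 for 11. In CPM of the library total, KO libraries 1 to 3 held the highest value for 2, 2 and 7 genes, against 3, 9, 7, 25 and 23 genes for WT libraries 1 to 5. The median TMM-scaled level over the 78 genes was 30.7, 15.7 and 8.95 CPM in KO libraries 1 to 3, against 35.1, 34.3, 25.8, 178 and 89.2 CPM in WT libraries 1 to 5. KO libraries 2 and 3 thus lay below every WT library, and KO library 1 between WT libraries 3 and 2. In CPM of the library total the median was 41.3, 23.0 and 11.6 CPM in KO libraries 1 to 3, against 39.9, 37.1, 27.5, 70.3 and 60.6 CPM in WT libraries 1 to 5. On that scale KO library 1 lay above WT libraries 1 to 3, and KO libraries 2 and 3 were again the lowest. Detection was uneven: 76, 65 and 55 genes had at least 10 counts in KO libraries 1 to 3, against 69, 64, 61, 61 and 61 in WT libraries 1 to 5, and 30 genes were at 0 in at least 1 library. A count of 0 allows up to 3 counts, which is 0.354 to 0.695 CPM of the library total in KO and 0.167 to 0.285 CPM in WT libraries. Only 28 genes reached 10 counts in every library of both groups.

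Compared per length, in TPM, which scale counts by gene length and then to a common total, the highest mean levels over the 8 libraries were those of Mrps21 (574 TPM), Mrpl42 (495 TPM), Mrps33 (449.8 TPM) and Mrps18c (435 TPM). Mrpl13 (343 TPM), Mrpl52 (279 TPM), Mrpl33 (206 TPM) and Mrps14 (133 TPM) are the others that the text names for their level. Mrps2 had 1.57 TPM and Mrps22, which like Mrps2 was picked out after its values were seen, had 2.83 TPM, the lowest of the 78. The median of the 77 tested genes was 44.9 TPM, against 13.2 TPM over all tested protein-coding genes. Across the 77 genes the log2 change had a Spearman rho of 0.03 with gene length and −0.19 with mean TPM, as a description of genes that share the same 8 libraries.

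Some of these genes share sequence with other features. Of the 78 genes, 28 have exons that overlap a gene on the opposite strand, and without strand such reads cannot be told apart. Genes named below with a negative log2 change are among them. The opposite gene covers 30.5% of the exon bases of Mrps18b, 13.1% of Mrpl12, 9.35% of Mrps30 and 4.16% of Mrpl13. On the same strand, Gm43511 covers 23.2% of the exon bases of Mrps18c and Gm49711 covers 19.9% of Mrps6. The rule left out 6 pseudogenes, of which 5 had at most 2.53 CPM in any library. Mrpl23-ps1 had 28.1, 50.99 and 77.3 CPM in the KO libraries, against 65.05, 104, 88.4, 414 and 130.3 CPM in the WT libraries. Mrpl23 itself had 9.71, 22.7 and 18.3 CPM in the KO libraries, against 14.7, 27.5, 15.6, 49.4 and 18.6 CPM in the WT libraries. The pseudogene was the higher in every library, and a split of reads between the copies makes both levels uncertain.

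Of the genes for large-subunit proteins with a bacterial counterpart, 30 of 31 were tested and all 30 had a negative log2 change, with a median of −1.84. Mrpl33 (ENSMUSG00000106918, chromosome 5, 31596935 to 31664384, plus strand), which encodes a small protein of this class and carries the NRF1 motif shown above, had 125, 91.5 and 81.97 CPM in KO libraries 1 to 3, against 335, 238, 205, 1529 and 772 CPM in WT libraries 1 to 5. Its groups did not overlap, and WT libraries 4 and 5 were the highest. It averaged 99.5 ± 22.6 CPM in KO libraries (SD, n = 3) and 616 ± 559 CPM in WT libraries (SD, n = 5). The log2 change was −2.63 (SE 0.83), and the adjusted p by edgeR was 0.325 and by DESeq2 0.00513. Without WT libraries 4 and 5 it was −1.36. Mrpl33 was also the only large-subunit gene whose KO libraries all lay below the WT libraries in CPM of the library total, at 169, 134 and 106 CPM in KO libraries 1 to 3, against 382, 257, 219, 605 and 525 CPM in WT libraries 1 to 5. Mrpl13 (ENSMUSG00000022370, chromosome 15, 55534094 to 55557748, minus strand) had 158, 105 and 130.5 CPM in the KO libraries, against 234, 298, 286, 341 and 808 CPM in the WT libraries. The groups did not overlap, WT library 5 stood far above the rest, and the log2 change was −1.58 (SE 0.62), or −1.04 without WT libraries 4 and 5. Mrpl32 (ENSMUSG00000015672, chromosome 13, 14608184 to 14613165, minus strand), whose protein must be trimmed by the m-AAA protease before it can join the ribosome, had 69.1, 18.7 and 47.97 CPM in the KO libraries, against 72.5, 141, 84.7, 187 and 243 CPM in the WT libraries. The highest KO and the lowest WT library lay close together. Its log2 change was −1.68 (SE 0.78), or −1.14 without WT libraries 4 and 5, and edgeR gave an adjusted p of 0.353. Mrpl20 had 58.3, 7.03 and 44.6 CPM in the KO libraries, against 58.7, 69.8, 105, 531 and 262 CPM in the WT libraries. KO library 1 and WT library 1 were almost level, and the log2 change of −2.49 (SE 1.07) was −1.11 without WT libraries 4 and 5. Mrpl35 had 8.57, 26.02 and 57.1 CPM in the KO libraries, against 49.8, 121, 61.5, 1002 and 315 CPM in the WT libraries. Its groups overlapped, since KO library 3 lay above WT library 1, and WT library 4 was by far the highest. The log2 change of −3.34 (SE 1.26) was −1.31 without WT libraries 4 and 5.

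Large-subunit proteins found only in mitochondria gave a median log2 change of −1.64, with 17 of 20 genes negative. Mrpl42 (ENSMUSG00000062981, chromosome 10, 95480805 to 95501940, minus strand) had 92.9, 77.5 and 22.01 CPM in KO libraries 1 to 3, against 119, 265, 93.98, 779 and 929 CPM in WT libraries 1 to 5. The highest KO library lay just below the lowest WT library, and the log2 change of −2.77 (SE 1.0) was −1.30 without WT libraries 4 and 5. Mrpl52, among the most abundant per length, had 24.5, 53.5 and 83.05 CPM in the KO libraries, against 52.5, 34.2, 115, 198 and 128 CPM in the WT libraries. Its groups overlapped, and the log2 change of −0.98 (SE 0.84) was −0.29 without WT libraries 4 and 5 and −0.0727 without TMM factors. Mrpl48 (ENSMUSG00000030706, chromosome 7, 100545751 to 100608301, minus strand) went the other way, with 294, 470.3 and 590.1 CPM in KO libraries 1 to 3, against 170.1, 134, 146, 465 and 371 CPM in WT libraries 1 to 5. All KO libraries lay above WT libraries 1 to 3, while WT libraries 4 and 5 lay within the range of the KO libraries. It averaged 452 ± 149 CPM in KO libraries (SD, n = 3) and 257 ± 151 CPM in WT libraries (SD, n = 5). The log2 change was 0.81 (SE 0.60), with a 95% interval of −0.54 to 2.16 and an adjusted p of 0.487 in edgeR. Without WT libraries 4 and 5 the log2 change was 1.63, with an unadjusted p of 0.00501 and an adjusted p of 0.241 in edgeR. In CPM of the library total Mrpl48 had 397, 689 and 764 CPM in KO libraries 1 to 3, against 194, 145, 155, 184 and 252 CPM in WT libraries 1 to 5. On that scale every KO library lay above every WT library, and the log2 change was 1.73, with an adjusted p of 0.315 in edgeR. Exons of Rab6a on the opposite strand cover 8.68% of the exon bases of Mrpl48, and the reads carry no strand. The 2 other genes whose KO libraries all lay above the WT libraries on that scale were Mrps23 and, named after its values were seen, Mrpl54.

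**Figure D2:**
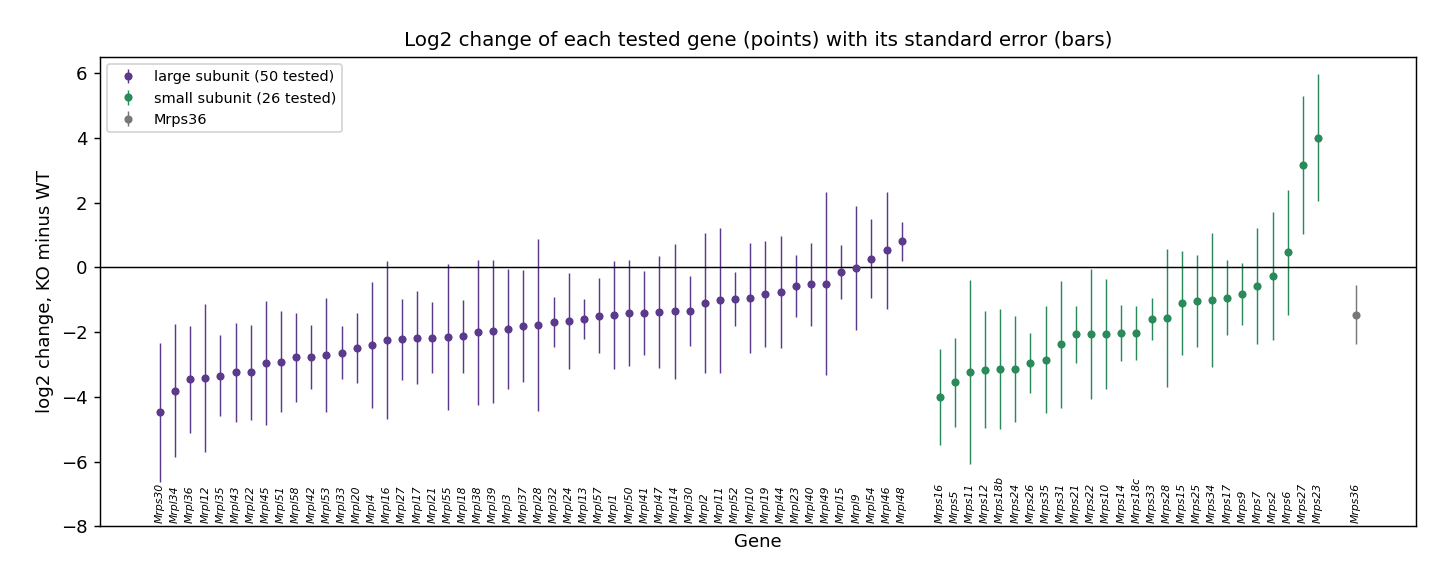
Log2 change, KO minus WT, of each of the 77 tested genes (points) with its standard error (bars), in order of size within the large subunit (50 genes), the small subunit (26 genes) and Mrps36. Points lie below 0 for 71 genes, and the largest positive values, those of Mrps23 (4.02) and Mrps27 (3.17), have wide bars.

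In the small subunit 23 of 26 genes had a negative log2 change, with a median of −2.02. At an unadjusted p under 0.05 in edgeR 7 lay lower, against 6.43% of all genes tested and 7.95% of protein-coding genes, and 0 higher. Proteins with a bacterial counterpart gave 16 of 17 negative and a median of −2.03, and proteins found only in mitochondria 7 of 9 and −1.60. Mrps26 (ENSMUSG00000037740, chromosome 2, 130563742 to 130568695, plus strand), found only in mitochondria and shown above with its ETS motif, had 36.4, 15.9 and 8.23 CPM in KO libraries 1 to 3, against 56.6, 109.5, 287, 243 and 85.1 CPM in WT libraries 1 to 5. The groups did not overlap, and here the highest library was WT 3 rather than WT 4 or WT 5. It averaged 20.2 ± 14.6 CPM in KO libraries (SD, n = 3) and 156 ± 102 CPM in WT libraries (SD, n = 5). The log2 change was −2.95 (SE 0.94), and the adjusted p by edgeR was 0.325 and by DESeq2 0.0016, and it was −2.92 without WT libraries 4 and 5. Mrps16 (ENSMUSG00000049960, chromosome 14, 20389304 to 20393634, minus strand), in which mutations cause a respiratory chain disorder in humans, had 9.10, 21.1 and 0 CPM in KO libraries 1 to 3, against 102, 112, 114, 286 and 195 CPM in WT libraries 1 to 5. The KO libraries lay far below the narrow range of WT libraries 1 to 3. It averaged 10.1 ± 10.6 CPM in KO libraries (SD, n = 3) and 162 ± 78.8 CPM in WT libraries (SD, n = 5), with a log2 change of −4.00 (SE 1.48), or −3.38 without WT libraries 4 and 5. In CPM of the library total the WT libraries were nearly level, with 12.3, 30.9 and 0 CPM in KO libraries 1 to 3, against 116, 121, 121, 113 and 133 CPM in WT libraries 1 to 5.

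Mrps5 (ENSMUSG00000027374) encodes a protein of the small subunit with a bacterial counterpart, and had 3.41, 6.88 and 0.716 CPM in the KO libraries, against 7.88, 99.9, 57.3, 14.3 and 36.97 CPM in the WT libraries. It was low in every KO library, but WT libraries 1 and 4 were also low, and the log2 change was −3.55 (SE 1.37), or −3.87 without WT libraries 4 and 5. Mrps33 (ENSMUSG00000029918), found only in mitochondria, had 203, 123 and 175 CPM in the KO libraries, against 217, 302, 363, 727 and 917 CPM in the WT libraries. The groups did not overlap, by a small margin, and the log2 change of −1.60 (SE 0.65) was −0.81 without WT libraries 4 and 5. Mrps21 and Mrps14, both with bacterial counterparts, had groups that overlapped. Mrps21 had 75.8, 39.03 and 96.8 CPM in the KO libraries, against 116, 73.9, 161, 685 and 448 CPM in the WT libraries, with a log2 change of −2.07. Mrps14 had 189, 67.7 and 107 CPM in the KO libraries, against 235, 246, 117, 1171 and 709 CPM in the WT libraries, with a log2 change of −2.03. In both genes WT libraries 4 and 5 were the highest, and without them the log2 changes were −0.72 for Mrps21 and −0.71 for Mrps14.

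The 6 genes with a positive log2 change included 3 of the small subunit. Mrps23 had 26.2, 23.03 and 5.19 CPM in the KO libraries, against 5.31, 0.173, 0, 0 and 0 CPM in the WT libraries. It was low throughout, and KO library 3 and WT library 1 were almost level, and the log2 change of 4.02 (SE 1.98) had an adjusted p of 0.363 in edgeR and was 3.36 without WT libraries 4 and 5. Mrps27, which encodes a protein with pentatricopeptide repeats, had 6.12, 32 and 0.179 CPM in the KO libraries, against 6.72, 0, 0, 0 and 0.279 CPM in the WT libraries. KO library 2 was the highest, the log2 change was 3.17 (SE 2.14), or 2.62 without WT libraries 4 and 5, and exons of a gene on the opposite strand cover 24.2% of the exon bases of Mrps27. Mrps6 had 18.2, 7.93 and 36.3 CPM in the KO libraries, against 35.9, 36.6, 2.35, 0 and 0 CPM in the WT libraries. The groups overlapped, and the log2 change of 0.47 (SE 1.94) was −0.24 without WT libraries 4 and 5. In the large subunit, Mrpl46 had 54.4, 11.1 and 10.02 CPM in the KO libraries, against 72.02, 1.21, 1.51, 0 and 12.7 CPM in the WT libraries. The log2 change was 0.52 (SE 1.81), or 0.0311 without WT libraries 4 and 5, KO library 1 and WT library 1 stood above the others, and its exons overlap those of Mrps11 on the opposite strand.

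**Figure D3:**
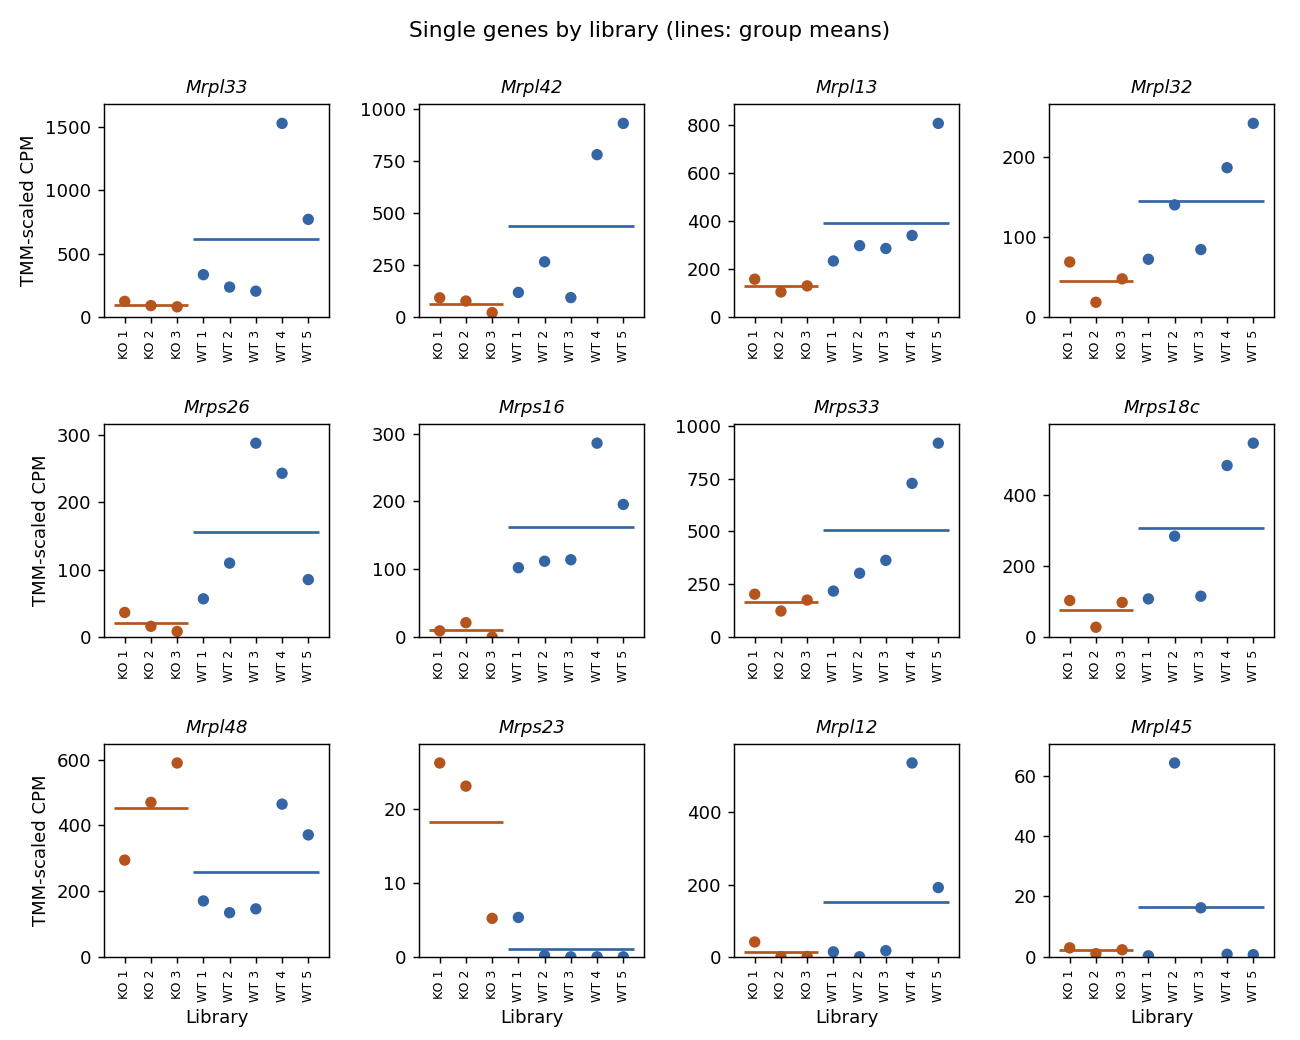
TMM-scaled CPM (linear axes from 0) of 12 mitoribosomal protein genes in KO libraries 1 to 3 (orange) and WT libraries 1 to 5 (blue), with lines at the group means. Mrps26 and Mrps16 are low in all KO libraries, Mrpl48 is high in all KO libraries and in WT libraries 4 and 5, and Mrpl12 is highest in WT library 4 and Mrpl45 in WT library 2.

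The mammalian genome holds 3 genes for relatives of the bacterial protein S18, whose products occupy different places. Mrps18c, whose protein lies in the small subunit, had 103, 27.5 and 97.2 CPM in the KO libraries, against 107, 283, 115, 482 and 545 CPM in the WT libraries. The groups did not overlap, by a margin of a few CPM, and the log2 change of −2.02 (SE 0.83) was −1.16 without WT libraries 4 and 5. Mrps18b, also of the small subunit, had 26.2, 10.2 and 9.66 CPM in the KO libraries, against 28.2, 130.3, 61.1, 462 and 0 CPM in the WT libraries. WT library 4 was the highest and WT library 5 was at 0, and the log2 change of −3.15 (SE 1.85) was −2.27 without those libraries. Mrps18a, whose protein lies in the large subunit, was the only gene of the 78 below the filter on low counts. It had 0, 3 and 31 counts in the KO libraries, against 396, 8, 0, 0 and 1 counts in the WT libraries, so it was seen mainly in WT library 1.

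Mrps30, named for the small subunit but placed in the large, had 9.88, 8.97 and 0 CPM in the KO libraries, against 82.6, 49.95, 0.0841, 148 and 426 CPM in the WT libraries. WT library 3 lay within the range of the KO libraries, and the log2 change of −4.48 (SE 2.16), the most negative of the 77, had an adjusted p of 0.358 in edgeR and was −2.77 without WT libraries 4 and 5. Mrps36, whose product is now known as a subunit of the oxoglutarate dehydrogenase complex, had 34.6, 26.02 and 46.4 CPM in the KO libraries, against 52.6, 36.3, 53.5, 264 and 87.3 CPM in the WT libraries. The groups overlapped, and the log2 change of −1.47 (SE 0.91) was −0.39 without WT libraries 4 and 5 and −0.40 without TMM factors. Mrpl12, of the flexible stalk that recruits translation factors, had 41.02, 0.449 and 1.07 CPM in the KO libraries, against 13.7, 0.0867, 16.98, 536 and 192 CPM in the WT libraries. The log2 change of −3.41 (SE 2.28) was 0.42 without WT libraries 4 and 5. Mrpl45, which anchors the ribosome to the inner membrane, had 2.97, 1.05 and 2.33 CPM in the KO libraries, against 0.332, 64.2, 16.2, 0.843 and 0.697 CPM in the WT libraries. It was above 10 CPM only in WT libraries 2 and 3, with a log2 change of −2.95 (SE 1.91) that turned to 1.91 when those libraries were left out and was −3.67 without WT libraries 4 and 5. Mrps12, of the decoding centre, had 10.8, 13.2 and 0 CPM in the KO libraries, against 10.3, 19.4, 36.1, 270.4 and 22.5 CPM in the WT libraries. WT library 4 stood far above the rest, and the log2 change of −3.17 (SE 1.81) was −1.44 without WT libraries 4 and 5. Mrpl58, a peptidyl-tRNA hydrolase built into the large subunit, had 84.4, 3.14 and 10.6 CPM in the KO libraries, against 35.9, 31.3, 164, 512 and 374 CPM in the WT libraries. KO library 1 lay above WT libraries 1 and 2, and the log2 change of −2.77 (SE 1.38) was −1.29 without WT libraries 4 and 5.

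Without WT libraries 4 and 5, 54 of 75 tested genes had a negative log2 change, against 53.5% of all genes tested and 61.9% of protein-coding genes. The median was then −0.72, while all genes gave −0.15 and protein-coding genes −0.48. Of the 75 genes tested both ways, 53 were negative both times, 16 turned from negative to positive, 1 turned from positive to negative, and 64 gave a higher value without the 2 libraries. At an unadjusted p under 0.05 in edgeR, 6 lay lower (6.36% of all genes tested) and 2 higher (8.75%). Of 10380 protein-coding genes tested, 800 lay lower and 639 higher, and the 6 lower genes of 75 lay near that share. The 6 were Mrpl3, Mrpl13, Mrpl33, Mrps5, Mrps18b and Mrps26, and the 2 were Mrpl47 and Mrpl48, of which Mrpl3 and Mrpl47 are named after their values were seen. By class, large-subunit genes with a bacterial counterpart gave 22 of 30 negative and a median of −0.84, and those found only in mitochondria 13 of 19 and −0.70. Small-subunit genes with a bacterial counterpart gave 14 of 16 negative and a median of −0.76, while for those found only in mitochondria the median turned positive, at 0.41, with 4 of 9 negative. With all 8 libraries but no TMM factors, 59 of 77 genes were negative (45.3% of all genes tested and 53.9% of protein-coding genes). That scaling moved the median of all genes to 0.21 and that of the mitoribosomal genes to −0.82.

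**Figure D4:**
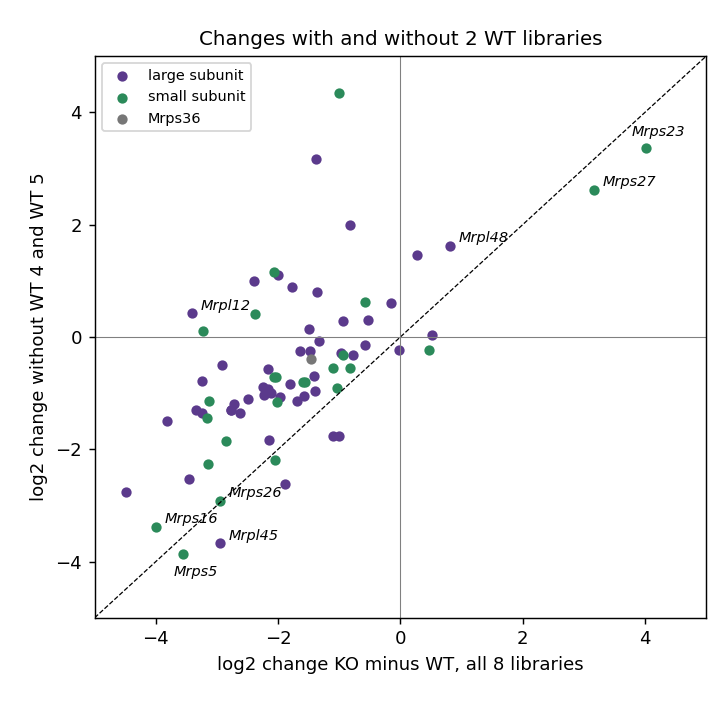
Log2 change, KO minus WT, of 75 mitoribosomal protein genes with all 8 libraries (horizontal) and without WT libraries 4 and 5 (vertical), each point a gene and the dashed line equality. Most points, 64 of 75, lie above the line, while Mrps26 lies on it at −2.95 and −2.92.

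Summed over genes, levels follow the abundant genes most. In CPM of the library total, the 78 genes summed to 4577, 3244 and 3358 CPM in KO libraries 1 to 3, against 4345, 4890, 4526, 7856 and 8470 CPM in WT libraries 1 to 5. Means were 3726 ± 739 CPM in KO (SD, n = 3) and 6017 ± 1980 CPM in WT libraries (SD, n = 5), and the log2 difference of −0.65 did not pass an exact two-sided permutation test (p = 0.125, adjusted p = 0.298 over 5 library measures). KO library 1 lay above WT libraries 1 and 3, and the other KO libraries lay below all WT libraries. The large subunit summed to 2906, 2291 and 2419 CPM in KO, against 2759, 2681, 2736, 5222 and 5719 CPM in WT libraries, a log2 difference of −0.51 (exact permutation p = 0.179), and there KO library 1 lay above WT libraries 1 to 3. The small subunit summed to 1624, 915 and 878 CPM in KO, against 1526, 2170, 1732, 2530 and 2692 CPM in WT libraries, a log2 difference of −0.93 (exact permutation p = 0.0536, adjusted p = 0.268). KO libraries 2 and 3 were the lowest of the 8 for the small subunit, and KO library 1 lay between WT libraries 1 and 3. Leaving out WT libraries 4 and 5 gave log2 differences of −0.11 for the large and −0.71 for the small subunit. The ratio of large to small subunit, from counts per kilobase, was 1.61, 1.92 and 1.68 in KO, against 1.56, 1.15, 1.67, 1.70 and 1.76 in WT libraries (exact permutation p = 0.446). The smallest p that 3 against 5 libraries can give is 0.0179.

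**Figure D5:**
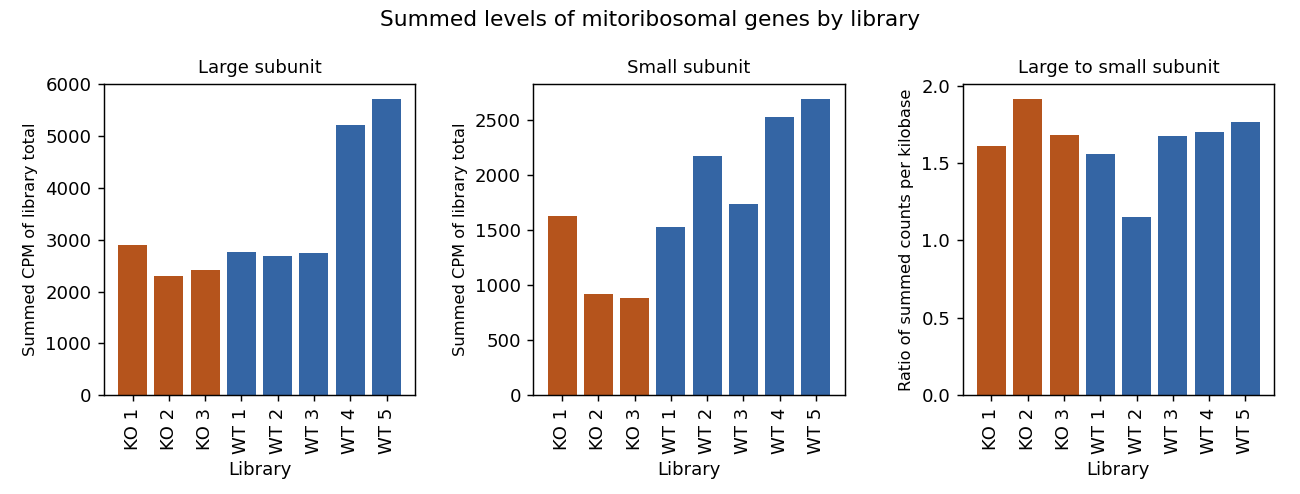
Summed CPM of the library total for large-subunit genes (left) and small-subunit genes (middle), and the ratio of their summed counts per kilobase (right), in 3 KO libraries (orange) and 5 WT libraries (blue), each bar a library. WT libraries 4 and 5 are the highest in the first panels, and the ratio spans 1.15 to 1.92.

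The ribosomal RNAs that these proteins bind are encoded in mitochondrial DNA. The small-subunit RNA, mt-Rnr1, had 1396, 1638 and 1777 CPM of the library total in KO libraries 1 to 3, against 1309, 1393, 1259, 2972 and 3273 CPM in WT libraries 1 to 5. The large-subunit RNA, mt-Rnr2, had 3027, 3605 and 4343 CPM in KO, against 1973, 2050, 3005, 9343 and 9355 CPM in WT libraries. For both RNAs the KO libraries lay above WT libraries 1 to 3 and below WT libraries 4 and 5.

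Proteins of the mitoribosome whose genes carry other names gave a median log2 change of −2.33 with Mrpl58 counted among them, and 5 of 6 genes were negative. Their median without WT libraries 4 and 5 was −0.0262, with 3 of 6 negative. Dap3, a GTP-binding protein of the small subunit, had 15.7, 24.5 and 16.5 CPM in the KO libraries, against 60.8, 3.90, 5.04, 476 and 5.02 CPM in the WT libraries. WT library 4 alone stood far above the rest, and the log2 change of −2.54 (SE 1.73) was 0.0171 without it and −0.23 without WT libraries 4 and 5. Ptcd3, at the channel where mRNA enters, had 93.2, 73.4 and 11.3 CPM in the KO libraries, against 93.3, 60.8, 5.80, 18.4 and 6.84 CPM in the WT libraries, with a log2 change of 0.68 and groups that overlapped. Aurkaip1 and Gadd45gip1 had log2 changes of −3.14 and −2.13, and each had its highest value in WT library 4, at 477 CPM for Aurkaip1 and 396 CPM for Gadd45gip1. Chchd1 had 50.6, 97.8 and 86.98 CPM in the KO libraries, against 54.2, 113, 9.84, 269 and 375 CPM in the WT libraries, with a log2 change of −1.07. Without WT libraries 4 and 5 the log2 changes were 0.19 for Ptcd3, −0.61 for Aurkaip1, 0.18 for Gadd45gip1 and 0.45 for Chchd1.

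Genes that assemble and run the mitoribosome showed smaller median changes than its proteins, a difference that was not tested, and edgeR called 0 of them in either direction. Of 26 assembly factors 22 were tested, 13 had a negative log2 change and the median was −0.82. Malsu1, which keeps the immature large subunit from joining the small, had 20.9, 5.83 and 21.7 CPM in the KO libraries, against 61.5, 59.8, 73.6, 236 and 174 CPM in the WT libraries. Its groups did not overlap. Malsu1 had a log2 change of −2.90 (SE 0.95), and edgeR gave an adjusted p of 0.325. Mterf3, which takes part in large-subunit assembly, had 149, 166 and 232 CPM in the KO libraries, against 57.9, 39.8, 188, 10.4 and 297 CPM in the WT libraries. Dhx30, an RNA helicase, had 139.9, 23.8 and 51.01 CPM in the KO libraries, against 93.4, 215, 235, 146 and 6.28 CPM in the WT libraries. Both overlapped between groups, with log2 changes of 0.62 for Mterf3 and −0.96 for Dhx30.

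Of 16 translation factors 14 were tested, 12 had a negative log2 change and the median was −0.71. Slirp, which stabilises mitochondrial mRNAs, had 49.1, 70.7 and 159 CPM in the KO libraries, against 80.8, 74.6, 51.95, 369 and 332 CPM in the WT libraries. Its groups overlapped and its log2 change was −0.97. Guf1, a translational GTPase, had a log2 change of −0.73, and the elongation factor Tsfm, at no more than 26.8 CPM in any library, −3.07. Of 17 mitochondrial tRNA synthetases 15 were tested, 10 were negative and the median was −1.17. Lars2, for leucine, had 61.8, 137 and 85.4 CPM in the KO libraries, against 80.2, 61.7, 186, 661 and 86.3 CPM in the WT libraries, with a log2 change of −1.18. Iars2, for isoleucine, had a log2 change of −1.17. Fars2, for phenylalanine, had 2.80, 0.150 and 1.97 CPM in the KO libraries, against 22.2, 49.1, 35.1, 0 and 209 CPM in the WT libraries. It was at 0 in WT library 4 and above 20 CPM in the other WT libraries. Fars2 had a log2 change of −5.25 (SE 2.20), and edgeR gave an adjusted p of 0.328.

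Of 15 genes of mitochondrial DNA maintenance, transcription and RNA processing 14 were tested, 11 were negative and the median was −0.996. Ssbp1, which binds single-stranded mitochondrial DNA, had 156, 73.1 and 140.1 CPM in the KO libraries, against 231, 98.6, 263, 892 and 459 CPM in the WT libraries. The groups overlapped, and the log2 change was −1.66 (SE 0.78). Trmt10c, a subunit of mitochondrial RNase P, had 117, 2.09 and 0.179 CPM in the KO libraries, against 63.8, 8.93, 0.0841, 309.9 and 0 CPM in the WT libraries. It was at 2.09 CPM or less in 4 libraries, some from each group, with a log2 change of −0.94. Mgme1, an exonuclease that acts in replication of mitochondrial DNA, had 91.1, 129 and 162 CPM in the KO libraries, against 26.7, 22.2, 43.8, 2.81 and 14.6 CPM in the WT libraries. Every KO library lay above every WT library. Mgme1 had a log2 change of 2.53 (SE 0.90), and edgeR gave an adjusted p of 0.325, while DESeq2 called the gene higher.

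Without WT libraries 4 and 5 the log2 changes were −2.01 for Malsu1, 0.96 for Mterf3, −1.37 for Dhx30, 0.46 for Slirp and −0.73 for Guf1. In the same libraries they were −0.17 for Lars2, −1.26 for Iars2, −4.44 for Fars2, −0.67 for Ssbp1, 0.69 for Trmt10c and 2.07 for Mgme1, while Tsfm was not tested there. The medians of these lists without WT libraries 4 and 5 were −0.55 for assembly factors (13 of 20 negative), −0.53 for translation factors (11 of 13), −0.22 for tRNA synthetases (9 of 15) and −0.43 for the transcription list (8 of 14). Without TMM factors, 11 of 22 assembly factors and 7 of 14 translation factors were negative, as were 9 of 15 tRNA synthetases and 8 of 14 genes of the transcription list.

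A RefSeq promoter was found for 69 of the 78 genes. The NRF1 motif was present in 8 of them (11.6%), against 3.05% of all 27025 genes with a promoter and 5.81% of the tested genes with a promoter. The ETS motif was present in 26 (37.7%), against 9.93% of all and 20.5% of the tested genes, and the YY1 motif in 8 (11.6%), against 1.64% and 3.75%. In all, 36 genes held at least 1 of the motifs. Tested genes with an NRF1 motif had a median log2 change of −2.07 (8 genes), against −1.85 for the others (60 genes). For ETS the medians were −2.17 (25 genes) and −1.47 (43 genes), and for YY1 −3.14 (7 genes) and −1.78 (61 genes). Counts of negative genes did not all follow the medians. With the ETS motif 22 of 25 were negative, against 41 of 43 without it. For YY1 these were 6 of 7 and 57 of 61, and for NRF1 8 of 8 and 55 of 60. These matches describe letters in a window and not binding, and the differences between the medians were not tested. Among the promoters shown at the start, the stretch of Mrpl48 holds the same 7 ETS letters as that of Mrps26. Mrpl48 lay higher in all KO libraries than in WT libraries 1 to 3, and Mrps26 lay lower in every KO library. Whether the motif bears on either direction was not tested.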

How the data were processed

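The authors deposited a table of expected counts, which are estimates and can be fractions, for 8 libraries of sorted mouse Treg cells. Libraries were made from total RNA with the low-input SMART-Seq V4 kit, per the labels' protocols, and this kit does not mark strand. Per the submitters' processing notes the tools were RSEM, StringTie, HISAT2, fastp and DESeq2 with the build mm10, and the role of each and the gene annotation are not given in the sources used here. The table held 0 columns of other samples.

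Groups and replicate numbers come from the sample titles. The labels do not say which animal gave which library, and so p-values reflect only how far these libraries differ. Expected counts were rounded. In R 4.3.3, edgeR 4.0.16 was run on the whole table with filterByExpr (minimum count 10, 14755 genes kept), TMM factors and the two-sided quasi-likelihood test of KO minus WT over all 8 libraries without covariates. Benjamini-Hochberg adjusted p under 0.05 over all genes tested counted as a call. The standard error is the size of the log2 change divided by the root of the F statistic. TPM were computed from counts and the gene lengths of the deposited table. Library measures were compared by an exact two-sided permutation over the 56 splits (scipy 1.17.1). Coordinates and exons are from GENCODE M21 (GRCm38). The procedure was tested on simulated data.

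Alternatives were DESeq2 1.42.0, DESeq2 size factors in edgeR, no TMM factors, a filter at a mean of 5 CPM, no filter, limma-voom (limma 3.58.1) with quality weights, a replicate block, each library left out, and WT libraries 4 and 5, or 2 and 3 (the only ones whose library names begin with FY), left out. No libraries of a group agreed within sampling noise (the smallest chi-square over degrees of freedom was 58.3). Limits for a count of 0 hold for counting error alone, as molecular identifiers were not used.

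The genes and lists were chosen with earlier results of these data known. Named genes were the 4 most abundant per length in each subunit, the 5 with the smallest p in each direction, up to 10 whose groups do not overlap, 8 with a known special place, those that failed the filter, proteins with other names, and from each other list the 2 most abundant and the 1 with the smallest p. Values of some marker genes are not reported here.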

Additional observations from a re-analysis of the deposited data

Results flagged for a closer look

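In 16 of 49 genes and library measures looked at, the highest of the 5 WT libraries lay so far above the next that Dixon's test marked it, while chance marks about 1 in 20 where values are normally spread. These are skewed values on a linear scale, from genes that share the same libraries and were in part chosen for their values, so that rate is no measure for this count. All values here are TMM-scaled CPM. In WT library 4 these were Mrpl35 at 1002, Mrps18b at 462, Mrps36 at 264, Mrps12 at 270.4, Dap3 at 476, Aurkaip1 at 477, Gadd45gip1 at 396, Lars2 at 661 and Trmt10c at 309.9 CPM. In WT library 5 they were Mrpl13 at 808 CPM, against 341 CPM in the next WT library, and Fars2 at 209 CPM. In WT library 1 they were Mrps23 at 5.31, Mrps27 at 6.72, Mrpl46 at 72.0 and Mrps18a at 32.9 CPM, and in WT library 2 Mrpl45 at 64.2 CPM. WT library 4 accounts for 9 of the 16 and WT library 5 for 2. WT library 4 also had the highest sums of NK and B cell markers and WT library 5 of haemoglobin genes, and their part in these values was not tested.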

How the results depend on the processing

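By edgeR and limma-voom 0 of the 77 genes passed the threshold under any alternative, while DESeq2 called 21, all lower, and called 3 assembly factors, 2 tRNA synthetases and 3 genes of the transcription list, where edgeR called 0. DESeq2 called 10.0% of all genes tested lower and 6.40% higher, and of 10753 protein-coding genes 1335 lower and 451 higher. The cause was not tested. The count of genes with a negative log2 change was 57 to 72 when a single library was left out, with 57 of 75 without WT library 4, and 54 of 77 with limma-voom. The median log2 change was −1.42 to −2.28 when a single library was left out, −0.72 without WT libraries 4 and 5, −1.85 without WT libraries 2 and 3, −2.30 with DESeq2 size factors, −0.82 without TMM factors and −0.74 with limma-voom. Of the summed levels, only that of the small subunit passed an exact permutation p of 0.05, and only unadjusted. It was −1.22 without KO library 1 (exact permutation p = 0.0476) and −1.04 without WT library 1 (exact permutation p = 0.0286). Each p is the smallest that the libraries left can give. KO library 1 and WT library 1 are the only pair that overlapped for this sum, at 1624 and 1526 CPM. With a single library left out the small subunit was at −1.22 to −0.77 and the large subunit at −0.62 to −0.34. All genes were at −0.81 to −0.51, and the ratio of large to small subunit at 0.05 to 0.21. These ranges are log2 differences. The difference in genes detected, 2.13 with all libraries, was −3.20 to 7.30. On CPM of the library total, tried after the data were seen, 3 genes lay below and 3 above in every KO library.

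Deviations of same-numbered libraries correlated at 0.0583, 0.0101 and 0.0367 for KO libraries 1 to 3. Those of differently numbered libraries correlated at −0.0467 to 0.0123. KO libraries 1 and 3 correlated best with their own number, and KO library 2 with another number. So few correlations cannot decide whether the numbers pair the libraries. With the replicate number as a block the median log2 change was −0.56, 52 of 77 genes were negative and edgeR called 0. Mrps6 was then at −0.15, Mrpl12 at 0.11, Dap3 at 0.96, Aurkaip1 at 1.21, Chchd1 at 0.84, Gadd45gip1 at 4.97 and Slirp at 0.25.

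Of 725 log2 changes of the 43 named genes under 17 alternatives, 680 kept direction and side of the threshold, 19 passed it with DESeq2, and 26 changed sign, those under the block among them. Without TMM factors Slirp was at 0.0682 and Trmt10c at 0.39. With limma-voom Dap3 was at 0.51, Aurkaip1 at 0.22, Chchd1 at 0.56 and Gadd45gip1 at 2.83. With a single library left out, Mrpl46 ranged from −0.79 (without KO library 1) to 2.71, Mrps6 from −0.21 (without KO library 3) to 1.12, Dap3 from −2.83 to 0.0171 (without WT library 4) and Trmt10c from −6.10 to 1.13 (without WT library 4). Without WT libraries 4 and 5 Mrps6 was at −0.24, Mrpl12 at 0.42, Chchd1 at 0.45, Gadd45gip1 at 0.18, Slirp at 0.46 and Trmt10c at 0.69. Without WT libraries 2 and 3 Mrpl46 was at −0.0107, Mrpl45 at 1.91 and Dhx30 at 0.0819. Over all 8 libraries depth and detection did not run together. KO library 1, with 8.48 M counts, had 76 of the 78 genes at 10 counts or more. WT library 4, the deepest with 17.98 M, had 61. Within the KO libraries both fell together, with 8.48, 4.57 and 4.31 M counts and 76, 65 and 55 such genes in KO libraries 1 to 3.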
